A study of Homo sapiens with 6 samples.

Results

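The mRNAs of the translation initiation factors (eIF) and elongation factors (eEF) were followed in RNA immunoprecipitation sequencing (RIP-seq) of the cytoplasmic poly(A)-binding proteins PABPC1 and PABPC4 in HepG2 cells, an established line from a human liver carcinoma. Members were the genes whose symbol starts with EIF or EEF followed by a digit, without pseudogenes, antisense or readthrough names and the Y-linked copy of EIF1AX. This rule uses names alone and gave 66 genes of the 58302 in each deposited table. Of the 6 libraries, 2 were PABPC1 pulldowns of PABPC1-overexpressing cells and 2 were PABPC4 pulldowns of PABPC4-overexpressing cells. The remaining pair were IgG pulldowns, 1 per overexpressing population, so no library came from unmodified cells. Between the PABPC1 and PABPC4 libraries both the antibody and the overexpressed protein differ, and the effects of these cannot be told apart. For the PABPC1 and PABPC4 pairs the labels do not say whether the libraries are separate cultures, so their spread may be technical only. The 2 IgG libraries differ in the overexpressed protein but were fitted as 1 group. The shared spread behind the p-values over libraries therefore holds this difference too.

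Initiation factors bring the initiator tRNA, the small ribosomal subunit and the mRNA together. The trimeric GTPase eIF2 carries the initiator tRNA, eIF3 scaffolds the complex on the small subunit, and eIF4E, eIF4G and eIF4A recognise the cap and unwind the leader. Poly(A)-binding proteins bind the tail of the mRNA and also contact eIF4G, which joins both ends of the message. eEF1A delivers aminoacyl-tRNA to the elongating ribosome and eEF2 drives translocation. The mRNAs of many elongation factors and of some initiation factors are known to begin with a terminal oligopyrimidine (TOP) tract, a C followed by an unbroken run of pyrimidines that ties their translation to growth signals.

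The authors' deposited tables give a fold over IgG and a p-value per gene, with no values of single libraries. Whole reads per library were recovered from these folds and p-values for 63 of the 66 members. Depth was 850190 and 841327 reads in the pair made with PABPC4 antibody, 289217 and 277552 with PABPC1 antibody, and 133030 and 94235 with IgG. Within each pair the larger is called A and the smaller B, since their replicate numbers were not recovered. Recovered reads of nuclear-encoded genes were 53.1% and 58.6% of all reads in the PABPC1 libraries. In the PABPC4 libraries they were 78.4% and 77.0%, and in IgG 38.5% and 40.5%. The remainder holds mitochondrial reads and reads of unsolved genes, nuclear MALAT1 among them, so it is not a mitochondrial share. Over the 6232 genes with at least 50 recovered reads, the median fold over IgG was 1.48 for PABPC1 and 2.07 for PABPC4 in the authors' deposited tables. Scaled by these recovered nuclear-encoded reads, called nuclear-encoded totals below, the same medians were 1.05 and 1.05. The 10 hepatocyte-lineage markers all had reads, at 6680 to 7494 RPM (reads per 1000000 library reads) in PABPC1, 9034 to 9668 in PABPC4 and 4202 to 4307 in IgG. For the 9 of them with at least 50 reads, the median fold by nuclear-encoded totals was 0.97 with PABPC1 and 1.06 with PABPC4. On that scale 4 and 5 of the 9 lay above 1. All 6 blood cell markers also had reads, with a summed level of 1255 to 1402 RPM in PABPC1, 582 to 728 in PABPC4 and 3503 to 3608 in IgG. The 5 fibroblast markers summed to 39.6 to 41.5, 9.51 to 18.8 and 106 to 143 RPM in the same order.

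Against PABPC1 RIP, PABPC4 RIP held relatively more mRNA of EIF3A, EIF5B and EIF3B and less of EEF1A1, EIF4B and EIF2AK2. The eIF3 subunit mRNAs EIF3A and EIF3B and the subunit-joining factor EIF5B rose by 0.59 to 0.80 on the log2 scale. The mRNAs of the elongation factor eEF1A1, the helicase cofactor eIF4B and the double-stranded RNA-activated kinase PKR (EIF2AK2) fell by 0.44 to 0.91. The other 45 members fitted did not pass the test. Over IgG, 4 members were called higher with PABPC1 and 16 with PABPC4 in the authors' deposited tables and none lower, or 6.45% and 25.0% of members with a p, beside 1.34% and 5.54% of all genes with a p. Of these calls, 3 of the 4 and 14 of the 16 were lost when reads were scaled by nuclear-encoded totals.

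The starts of 7 mRNAs are shown first. EEF1A1 and EIF4B, which fell in PABPC4 RIP, open with a pyrimidine run. EIF2AK2, which also fell, and EIF5B and EIF3B, which rose, do not. EEF2 and EIF2S3, which did not pass the test, are further members with a run. Of the 12 members with a run, 3 lay above 0 in the comparison of PABPC4 with PABPC1, EEF1B2 (0.50) among them. The starts of these 3 are not shown here. Each line gives 10 bases before and 20 bases from the RefSeq start (GRCh38.p14), in transcript direction, with a pyrimidine run that opens with C at the start in capitals.
EEF1A1: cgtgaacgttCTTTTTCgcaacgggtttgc
EIF4B: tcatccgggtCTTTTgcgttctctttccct
EEF2: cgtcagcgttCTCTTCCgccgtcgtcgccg
EIF2S3: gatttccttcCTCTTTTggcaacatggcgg
EIF5B: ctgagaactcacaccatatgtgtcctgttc
EIF3B: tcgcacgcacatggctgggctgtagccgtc
EIF2AK2: aggggaaaacgaaactgagaaccagctctc
These windows lie at chr6:73521013-73521042 on the minus strand (EEF1A1), chr12:53006446-53006475 on the plus strand (EIF4B), chr19:3985444-3985473 on the minus strand (EEF2) and chrX:24054946-24054975 on the plus strand (EIF2S3). The other three lie at chr2:99337379-99337408 on the plus strand (EIF5B), chr7:2354817-2354846 on the plus strand (EIF3B) and chr2:37156961-37156990 on the minus strand (EIF2AK2). EEF1A1, EIF4B, EEF2 and EIF2S3 open with C and at least 4 further pyrimidines. The starts of EIF5B, EIF3B and EIF2AK2 hold no such run. The start listed for EIF3B lies inside its RefSeq gene span, which begins further upstream. EIF3A and EIF2S2 have no entry in the sequence table. The starts are RefSeq annotation and were not measured in these cells.

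The direct comparison of PABPC4 with PABPC1 was fitted with limma voom on the recovered reads of all 6 libraries, scaled by the median of ratios, for the 7963 genes that reached 10 reads in 2 or more libraries. Across these genes 171 were higher in PABPC4 RIP at an adjusted p under 0.05 (2.15%) and 181 lower (2.27%). Of the 51 members fitted, 3 were higher and 3 lower. The fitted members were read more deeply, with a median of 248 reads beside 92 for all genes fitted. Their median SE was 0.26, beside 0.39, so the shares are not of genes with like depth. The median log2 difference of the members was 0.016, beside -0.028 for all genes fitted, and 27 of the 51 members were above 0. At an unadjusted p under 0.05, 6 members were higher and 7 lower. Levels below are scaled RPM, in which each library's total is set by the median of ratios.

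EIF3A (chr10:119033670-119080817) encodes the largest subunit of eIF3, and its mRNA was the fifth most read gene of PABPC4 RIP among genes with recovered reads. It held 701 and 729 reads in the PABPC1 libraries, 4761 and 4379 in PABPC4, and 228 and 172 in IgG. Its scaled level was 2540 and 2515 RPM in PABPC1, 4051 and 3742 in PABPC4, and 2459 and 2437 in IgG. The PABPC1 and IgG libraries lay close together, and both PABPC4 libraries lay above all of them. The log2 difference between PABPC4 and PABPC1 was 0.62 ± 0.06 (SE), with a limma adjusted p of 1e-09. EIF3A alone gave 33.8% of all member reads in PABPC4 RIP, 24.3% in PABPC1 RIP and 24.8% in IgG.

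EIF5B (chr2:99337389-99401326) encodes the GTPase that joins the ribosomal subunits. Its scaled level was 638 and 697 RPM in PABPC1, 1054 and 955 in PABPC4, and 464 and 524 in IgG. The 3 groups did not overlap, with IgG lowest and PABPC4 highest. The difference between PABPC4 and PABPC1 was 0.59 ± 0.10 (SE) with a limma adjusted p of 0.00011. These values rested on 176 and 202 reads in PABPC1, 1239 and 1118 in PABPC4, and 43 and 37 in IgG.

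EIF3B (chr7:2354086-2380745) encodes the eIF3 subunit that binds EIF3A in the complex. It had 22 and 33 reads in PABPC1, 203 and 194 in PABPC4, and 10 and 8 in IgG, or 79.7 and 114, 173 and 166, and 108 and 113 scaled RPM. PABPC4 lay above the other libraries, and PABPC1 and IgG overlapped. The difference from PABPC1 was 0.80 ± 0.22 (SE) with a limma adjusted p of 0.028. EIF3C, another core subunit, had a similar difference of 0.61 ± 0.22 (SE) but did not pass, with a limma adjusted p of 0.12.

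EEF1A1 (chr6:73515750-73521032) encodes the main form of eEF1A. Its scaled level was 834 and 873 RPM in PABPC1, 556 and 625 in PABPC4, and 744 and 1063 in IgG. Both PABPC4 libraries were below all others, and IgG spanned the PABPC1 values. It fell by 0.54 ± 0.10 (SE) on the log2 scale, with a limma adjusted p of 0.00037. The reads were 230 and 253, 653 and 732, and 69 and 75 in PABPC1, PABPC4 and IgG. EEF1A1P5, a pseudogene copy of EEF1A1, had 159 reads in PABPC1, 484 in PABPC4 and 46 in IgG, so reads of this family may be divided between near-identical sequences.

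EIF4B (chr12:53006456-53042215) encodes the cofactor that stimulates the eIF4A helicase. Its scaled level was 1192 and 1163 RPM in PABPC1, 894 and 841 in PABPC4, and 960 and 595 in IgG. Both PABPC1 libraries exceeded the other 4, and the IgG libraries lay on either side of PABPC4. EIF4B fell in PABPC4 relative to PABPC1 by 0.44 ± 0.08 (SE) on the log2 scale, with a limma adjusted p of 0.00052. It had 329 and 337 reads in PABPC1, 1051 and 984 in PABPC4, and 89 and 42 in IgG.

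EIF2AK2 (chr2:37099210-37156980) encodes PKR, which phosphorylates eIF2 alpha when double-stranded RNA is present. It had 24 and 30 reads in PABPC1, 51 and 70 in PABPC4, and 9 and 4 in IgG. The scaled levels were 87.0 and 103 RPM, 43.4 and 59.8, and 97.1 and 56.7, with both PABPC4 libraries below PABPC1 and overlapping IgG. It fell by 0.91 ± 0.26 (SE) on the log2 scale, with a limma adjusted p of 0.030. In the same fit 5 of the 6 blood cell markers fell and their median log2 difference was -1.54, and the part of those RNAs in the lower values of EEF1A1, EIF4B and EIF2AK2 was not tested.

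**Figure D1:**
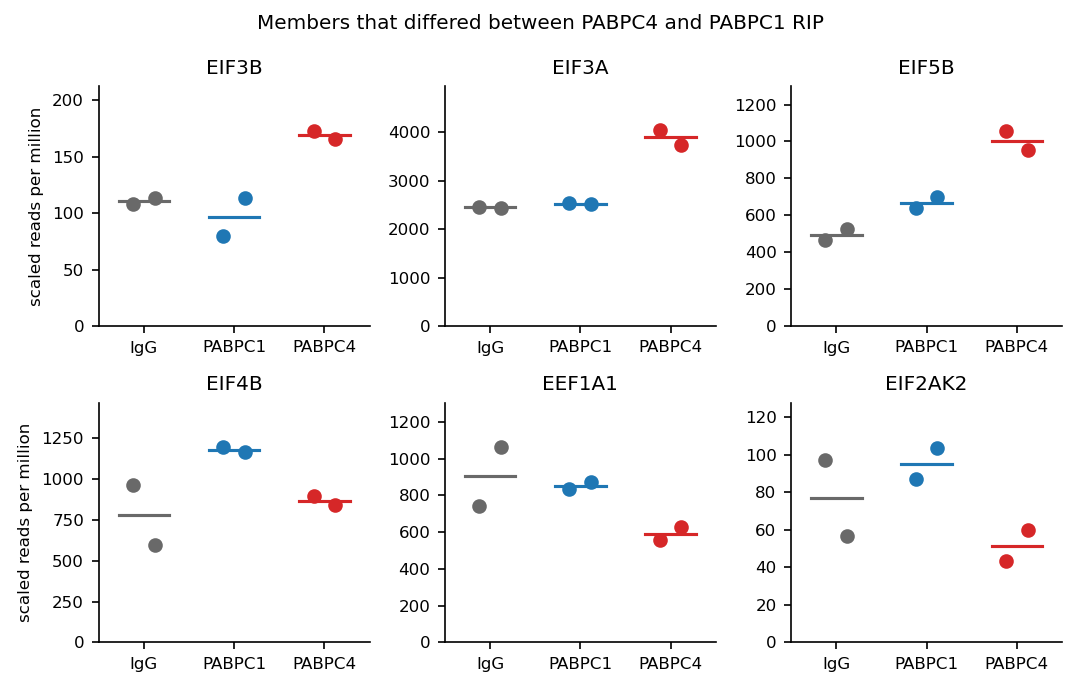
Scaled RPM (scaled reads per 1000000 reads, linear axis from 0) of the 6 members that differed between PABPC4 and PABPC1 RIP, with 1 point per library and a line at the mean of the 2 libraries of each group. The PABPC4 points lie above both PABPC1 points for EIF3B, EIF3A and EIF5B and below them for EIF4B, EEF1A1 and EIF2AK2.

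RefSeq spans of other genes touch EIF2AK2 (GPATCH11, 53 PABPC4 reads), EIF3B (SNX8, 50 reads), EIF5B (REV1, 213 reads) and EIF3A (NANOS1, 10 reads), and reads counted for both members of such a pair could not be separated here. All 6 calls were lost without either PABPC1 library, and the 3 lower calls were also lost on library totals. Without PABPC1 library A or without PABPC1 library B no member was called, with limma adjusted p-values of 0.13 and 0.11 for EIF3A, although the differences of EIF3A were 0.63 and 0.61. Without PABPC1 library A, 2 members were higher and 5 lower at an unadjusted p under 0.05, and without PABPC1 library B 5 were higher and 2 lower. Without PABPC4 library A, EIF2AK2 lost its call, at a difference of -0.62, and without PABPC4 library B its difference was -1.09. Each of these fits leaves a single PABPC4 library, so counts of calls are not given. The fits without a PABPC4 library held 42 members each in place of 51, since fewer genes reached 10 reads in 2 libraries. Scaled by library totals, which moves the median of all genes from -0.028 to 0.45, 13 members were higher and 0 lower (21 and 0 at an unadjusted p). These 13 of 51 members stand beside 1164 of all 7963 genes fitted that were called in either direction. On that scale EIF3A (1.10), EIF5B (1.06) and EIF3B (1.29) passed with larger differences. EIF4B reversed to 0.033, with a limma adjusted p of 0.84, EEF1A1 was at -0.059 and EIF2AK2 at -0.44, and neither passed. Scaled by nuclear-encoded totals all 6 members passed in the same direction. Limma's trend fit on log2(RPM + 1) called 0 members, with 4 higher and 3 lower at an unadjusted p under 0.05, and called 0 of all genes.

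By role, the eIF3 and cap-binding groups lay higher in PABPC4 than the eIF2 alpha kinases and the eIF4E inhibitors. Of the 14 eIF3 genes fitted, 9 were above 0, with a median of 0.20 and a range from -0.71 (EIF3F) to 0.80 (EIF3B), and 2 passed as higher. Of 9 cap-binding and helicase genes, 6 were above 0 with a median of 0.26, and 1, EIF4B, passed as lower. The cap-complex scaffold EIF4G1 was at 0.45 ± 0.18 (SE) and its paralogue EIF4G3 at 0.31 ± 0.20 (SE), and EIF4G2, which lacks the eIF4E-binding site, was at -0.33 ± 0.18 (SE), none of which passed. Of the 4 eIF2 alpha kinases 1 was above 0, and the median was -0.34. Among the 3 eIF4E inhibitor and transporter genes fitted, EIF4EBP2 was at -0.59 ± 0.18 (SE) with a limma adjusted p of 0.056, EIF4EBP1 at -0.67 ± 0.33 (SE) and EIF4ENIF1 at 0.76 ± 0.47 (SE). Scaled by library totals the medians were 0.68 for eIF3, 0.73 for the cap-binding group, 0.14 for the kinases and -0.11 for the inhibitors, so that the kinases turned to above 0. These group values are descriptions without a test.

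Genes for eIF2 and its exchange factor eIF2B spread on both sides of 0, with 4 of 7 above 0 and a median of 0.013. Within the eIF2 trimer, EIF2S2 (beta) was at 0.36 ± 0.14 (SE), EIF2S3 (gamma) at -0.50 ± 0.18 (SE) and EIF2S1 (alpha) at -0.71 ± 0.44 (SE), and the adjusted p-values of limma were 0.16, 0.13 and 0.45. EIF2S2 had 385 and 357 scaled RPM in PABPC4 and 308 and 269 in PABPC1, whereas EIF2S3 had 122 and 149 in PABPC4 and 174 and 204 in PABPC1. The differences of EIF2S2 and EIF2S3 had opposite signs, but neither passed the test, so no split within the trimer was shown. The scanning and joining group had 4 of 8 genes above 0 and a median of -0.038, with EIF5B the gene that passed. Among 4 elongation factors 1 was above 0, EEF1B2 at 0.50 ± 0.25 (SE), and EEF2 was at -0.089 ± 0.083 (SE), with a 95% interval from -0.26 to 0.078.

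**Figure D2:**
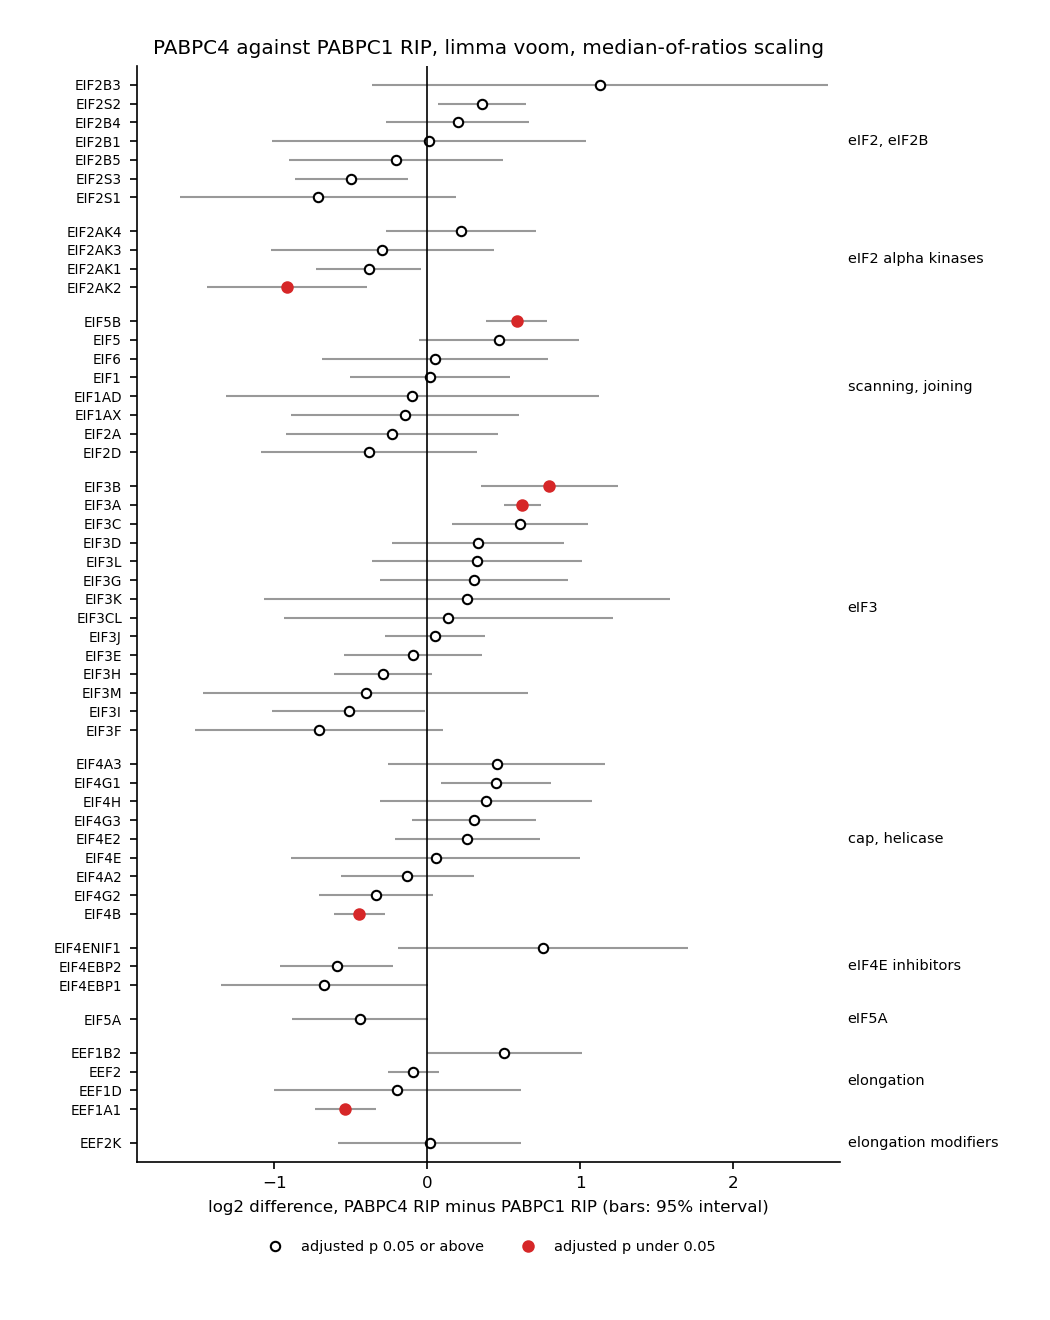
Log2 difference between PABPC4 and PABPC1 RIP for the 51 members fitted, by role group, from limma voom with median-of-ratios scaling; points are estimates, bars are 95% intervals, and filled points have an adjusted p under 0.05. EIF3A has the narrow interval of a deeply read gene (0.50 to 0.75), while EIF3B, at 0.80, spans 0.35 to 1.25.

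Members with a pyrimidine run at the start lay lower in the direct comparison than members without. The run searched was a C at the RefSeq start followed by at least 4 letters C or T, read on the transcript strand. Starts were found for 52 of the 66 members, of which 12 held the run at 1 or more starts (23.1%), beside 1404 of 27305 genes in the whole table (5.14%). All 12 were fitted, 3 of them were above 0, and their median log2 difference between PABPC4 and PABPC1 was -0.30. Of 29 fitted members without the run 19 were above 0, and the median was 0.053. Scaled by library totals these medians were 0.17 and 0.53, so that the sign of the first depends on the scaling. The members with a run were EEF1A1, EEF1B2, EEF2, EIF2A, EIF2D, EIF2S3, EIF3D, EIF3F, EIF3K, EIF3M, EIF4A2 and EIF4B. Among 9 members listed as known TOP mRNAs, 8 were fitted, 1 of these (EEF1B2) was above 0, and the median was -0.24, or 0.23 on library totals. Of the 43 other members fitted, 26 were above 0 with a median of 0.053. The group of 12 and the list of 9 share EEF1A1, EEF1B2, EEF2, EIF3F and EIF4B. These are descriptions without a test, and a match of letters does not show that a start is used.

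**Figure D3:**
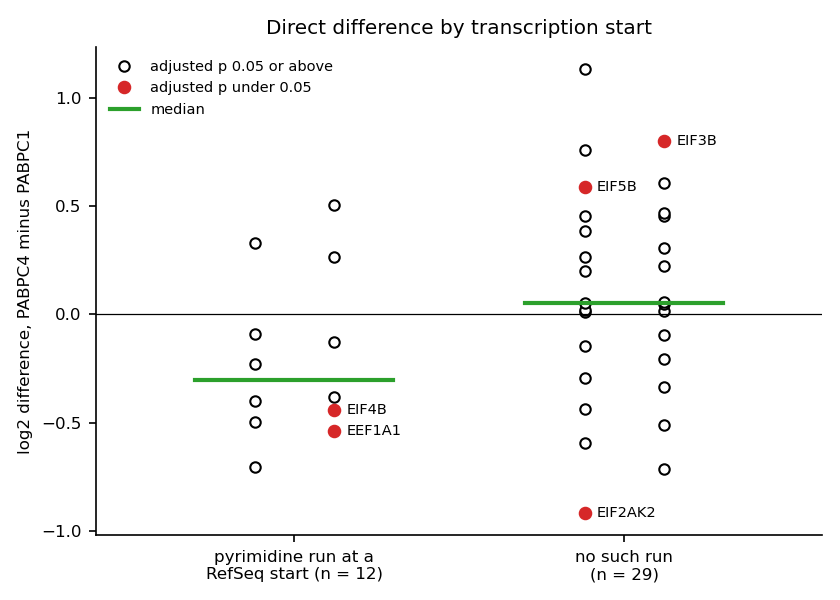
Log2 difference between PABPC4 and PABPC1 RIP (vertical axis) for the 41 fitted members with a RefSeq start, split by a pyrimidine run at the start; points are genes, filled where the adjusted p of limma is under 0.05, and lines are medians. The medians are -0.30 for the 12 members with a run and 0.053 for the 29 without.

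Gene length did not order the members in this comparison. Across the 51 members the Spearman correlation of the log2 difference with the gene length used by the authors was -0.027, and with summed reads 0.11, beside 0.010 and 0.042 across all genes fitted; all genes share the same 6 libraries.

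For PABPC1 against IgG, 4 of the 62 members with a p were called higher in the authors' deposited table (6.45%, beside 1.34% of all genes with a p), and none lower (0.194% of genes). Among genes of the limma fit, which have more reads, the shares were 7.84% of members and 2.94% of genes. In the authors' deposited table EIF4B had a fold of 2.11 (adjusted p 3e-11), EIF3A 1.43 (9.84e-08), EIF5B 1.87 (4.6e-05) and the eIF3 subunit EIF3H 2.57 (0.00616). These p-values come from summed reads and leave out the spread between libraries. EIF3H had 71 and 74 reads in PABPC1 and 18 and 6 in IgG, or 245 and 267 against 135 and 63.7 RPM, without overlap. Its fold moved to 4.02 without IgG library A (adjusted p 0.094) and to 1.89 without IgG library B (adjusted p 0.55), so the call was lost without either. The fold of EIF3A lay below the all-gene median of 1.48, so this mRNA was called higher without standing above other genes. Among the 47 members with at least 50 reads, 42 had a fold above 1 in the authors' deposited table, and the median was 1.53.

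Scaled by nuclear-encoded reads the picture for PABPC1 changed. The median fold of the 47 members was 1.08 and 26 of them lay above 1. The fold of EIF4B was 1.48, of EIF3H 1.80, of EIF5B 1.32 and of EIF3A 1.01. Of the 4 calls, that of EIF4B was kept by the chi-square test on this scale (adjusted p 0.031), and 1 member, EEF2, was called lower at a fold of 0.755 (adjusted p 0.0495). Without IgG library A, the deposited test called 2 members, EIF4B and EIF3A, on library totals. Limma voom over the libraries called 0 members in PABPC1 against IgG, with 4 higher and 1 lower at an unadjusted p under 0.05, and an adjusted p of 0.085 for EIF4B. In that fit 28 of the 7963 genes were higher (0.352%). Both PABPC1 libraries lay above both IgG libraries in RPM in 24 of 47 members, beside 48.3% of genes with as many reads.

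For PABPC4 against IgG, 16 of 64 members with a p were called higher in the authors' deposited table (25.0%, beside 5.54% of all genes with a p) and none lower (0.9% of genes). Among genes of the limma fit the shares were 31.4% of members and 14.9% of genes, and the members had more reads than other genes of that fit, with a median of 248 against 92. Of the 14 eIF3 genes 6 were called, namely EIF3A, EIF3B, EIF3C, EIF3E, EIF3H and EIF3J, with folds from 2.45 to 3.30 in the authors' deposited table. The fold of EIF3E was 1.77 without IgG library A (adjusted p 0.99) and 3.99 without IgG library B (adjusted p 0.032), and that of EIF3H was 4.58 and 2.16, called in both cases. Their near-copy EIF3CL, whose sequence is almost that of EIF3C, was not called at a fold of 3.21 in the authors' deposited table, and reads of this pair may be divided between them. The cap-binding group gave 4 calls in the authors' deposited table, EIF4B (2.16), EIF4E2 (2.74), EIF4G1 (2.71) and EIF4G3 (2.61). The eIF2 and eIF2B group gave 3 calls in the authors' deposited table, EIF2S2 (2.79), EIF2S3 (2.28) and EIF2B4 (3.90), which encodes eIF2B delta. EIF2AK4, the amino acid sensor GCN2, had a fold of 3.18, EIF5B 3.89 and EEF2 1.39 in the authors' deposited table.

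The depth behind these calls differed widely, and without IgG library A 6 members were called, EIF3A, EIF5B, EIF4B, EIF2S2, EIF3C and EIF3H. Of the 16 calls, those of EIF2AK4, EIF2S3 and EIF4E2 were also lost without IgG library B, and that of EIF2S3 also without PABPC4 library B (fold 2.04, adjusted p 0.055). EIF3A had a fold of 3.05 in the authors' deposited table with an adjusted p of 2.2e-115, and a 95% counting interval from 2.78 to 3.40. EIF2B4, with 9 IgG reads, had an interval from 2.21 to 9.40 around 3.90, and its fold was 2.64 without IgG library A (adjusted p 0.33) and 7.46 without IgG library B. EIF4E2 had 133 and 119 reads in PABPC4 and 6 and 6 in IgG, and its interval ran from 1.59 to 5.53. EIF1AX, chosen after its values were seen for its fold of 10.9 in the authors' deposited table, had 1 IgG read and an interval from 1.63 to 377, and it was not called (adjusted p 0.128). Intervals cover counting error only, since reads amplified by PCR are not independent molecules.

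**Figure D4:**
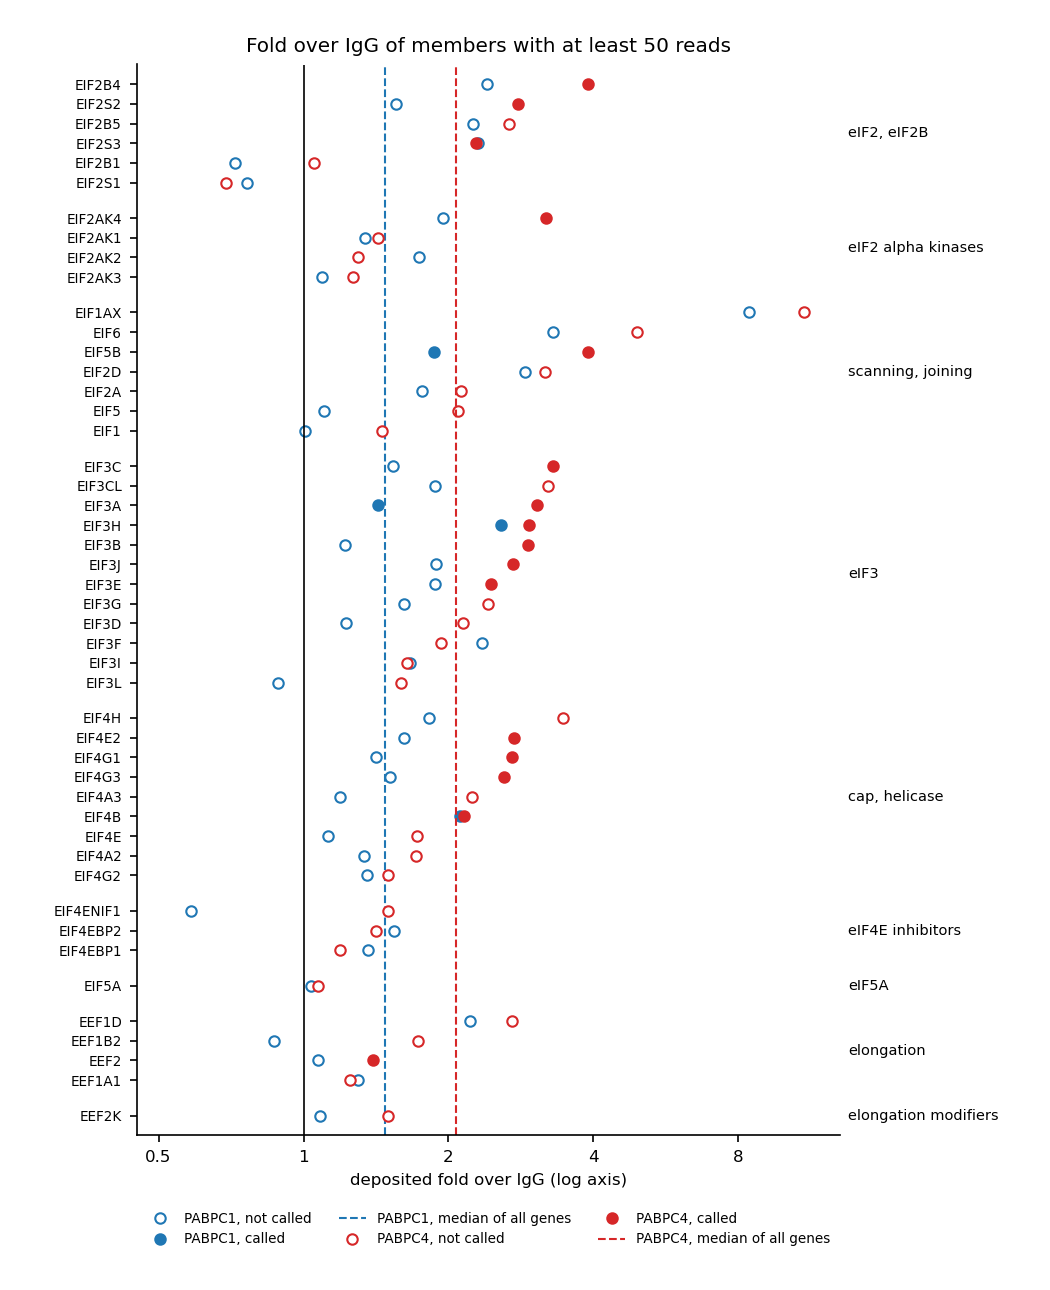
Deposited fold over IgG (log axis) of the 47 members with at least 50 reads by role group, for PABPC1 (blue) and PABPC4 (red); filled points have a deposited adjusted p under 0.05 and dashed lines are the medians of 6232 genes, 1.48 and 2.07. EIF5A lies near 1 with both antibodies, and EEF2 is called with PABPC4 although it lies left of the dashed line.

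EEF2 changed direction with the scaling. It had 313 and 385 reads in PABPC1, 1285 and 1434 in PABPC4, and 135 and 122 in IgG. On library totals it was at 1511 and 1704 RPM in PABPC4 and at 1015 and 1295 in IgG, with no overlap and PABPC4 higher. In scaled RPM it was at 1093 and 1225 in PABPC4 and 1456 and 1728 in IgG, with PABPC4 lower. The limma difference from IgG was -0.45 ± 0.12 (SE), with an adjusted p of 0.028. EEF1A1 also fell against IgG in this fit, by 0.57 ± 0.15 (SE) with a limma adjusted p of 0.022, while its fold in the authors' deposited table was 1.25 and not called (adjusted p 0.0568). EIF5B, at 1.02 ± 0.18 (SE), and EIF3A, at 0.67 ± 0.11 (SE), rose over IgG with limma adjusted p-values of 0.0003 and 7.6e-05. In this fit 134 of the 7963 genes were higher in PABPC4 (1.68%) and 174 lower (2.19%), and 2 of the 51 members passed in each direction. The median fold of the 47 members with at least 50 reads was 2.16 in the authors' deposited table and 1.10 by nuclear-encoded reads, where 27 of 47 lay above 1. Both PABPC4 libraries exceeded both IgG libraries in RPM in 37 of 47 members, beside 76.4% of genes with as many reads.

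**Figure D5:**
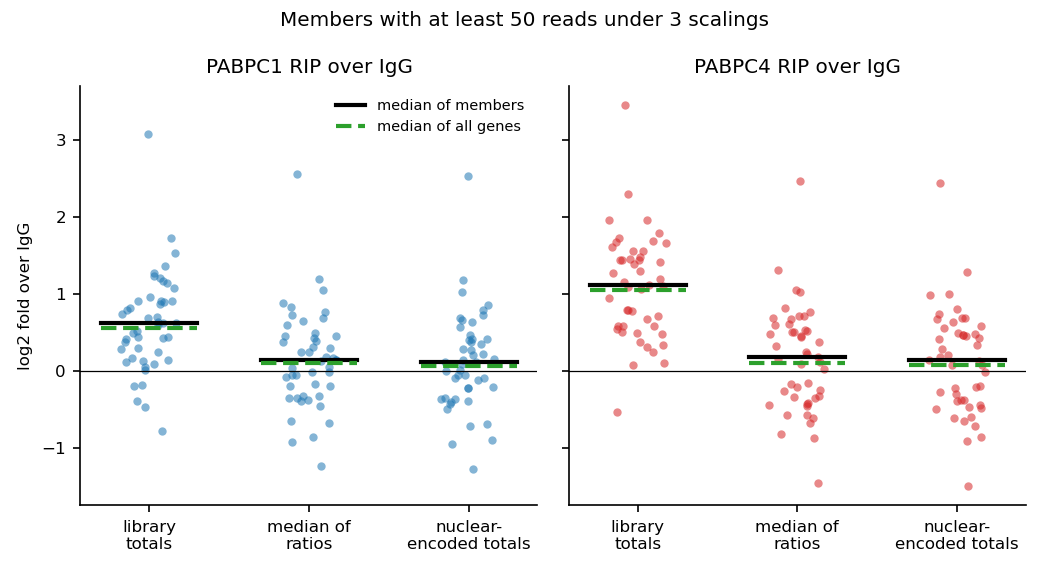
Log2 fold over IgG of the 47 members with at least 50 reads for PABPC1 (left) and PABPC4 (right) under 3 scalings; points are genes, black lines the medians of the members and dashed green lines the medians of 6232 genes. With library totals the medians of the members are 0.62 and 1.11, and with nuclear-encoded totals 0.11 and 0.14, close to the all-gene medians in each case.

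As a share of recovered nuclear-encoded reads, the member mRNAs made up 1.82% and 1.90% in the PABPC1 libraries. The shares were 2.06% and 2.06% in the PABPC4 libraries, and 1.79% and 1.83% in the IgG libraries. Of the member reads, EIF3A gave 33.8% in PABPC4 RIP, 24.3% in PABPC1 RIP and 24.8% in IgG. This gene thus weighs more on the PABPC4 share, which does not show a rise of the members in general. Per length, EIF3A was the highest member in PABPC4 RIP at a mean of 761 RPKM (reads scaled by gene length and library depth), followed by EEF2 at 399, EIF4B at 196 and EIF2S2 at 194. In PABPC1 RIP the order was EIF3A (356 RPKM), EEF2 (307) and EIF4B (191), and in IgG EEF2 (287), EIF3A (249) and EEF1A1 (111). Other eIF3 subunits were far lower in PABPC4 RIP, with EIF3J at 95.8 RPKM, EIF3B at 26.1 and EIF3F at 2.95. EIF3A therefore led its complex in IgG as well as in both RIPs. The gene lengths are those used by the authors, 7101 nt for EIF3A and 9431 nt for EIF3F. Lengths of the transcripts present were not measured, so ranks by RPKM depend on these values. EIF4B and EIF2S2 did not separate in PABPC4 RIP.

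Of the members with many reads that were called in no comparison, EIF4G2, EIF2AK1, EIF4EBP2, EEF1B2, EIF5, EIF4A2, EIF5A, EIF3G, EIF1 and EIF3D had 184 to 382 summed PABPC4 reads. EIF5A, whose product carries hypusine, had the lowest folds of these with PABPC4, at 1.07 in the authors' deposited table and 1.04 with PABPC1. EIF2AK1, the haem-regulated kinase, had folds of 1.34 with PABPC1 and 1.42 with PABPC4 in the authors' deposited table. EIF1, a scanning factor, was at 1.01 and 1.45 in the authors' deposited tables.

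At the low end, 16 members had 3 to 47 reads over all libraries. EIF4A1, the main eIF4A helicase gene, had 1 read in PABPC1, 2 in PABPC4 and none in IgG, although EIF4A2 had 65, 249 and 20. A further 5 members had no IgG read, EEF1E1 with 13 PABPC4 reads, EIF5AL1 with 10, EEF2KMT with 8, EEF1AKMT2 with 4 and EEF1A2 with 3. The limit of 3 IgG reads that a count of 0 allows lies above each of these PABPC4 levels, so no fold is given. EEF1G and EIF4E1B were listed at 0 in both of the authors' deposited tables. EIF4EBP3 was listed at 0 for PABPC1 and had no resolved reads. The RefSeq span of EIF4A1 overlaps a readthrough gene, SENP3-EIF4A1, listed at 0 in the authors' deposited table, and several snoRNA genes. The sources used here do not give how reads of overlapping genes were counted, so a low value there need not be a low level.

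Among 34 other genes of translation and its regulation, 33 had a p with each antibody. With PABPC1 RIP 1 was called higher in the authors' deposited table, PABPC1 itself (2.03), and with PABPC4 RIP 9, none lower. Over all genes with a p, the shares called higher were 1.34% and 5.54%. Limma voom over libraries called 0 of these genes with PABPC1, and 1 higher and 1 lower with PABPC4. In the direct fit of 28 of them, 1 was higher and 3 lower, beside 2.15% and 2.27% of all genes fitted. ABCF1, an ABC protein of initiation, rose by 0.72 ± 0.15 (SE) with a limma adjusted p of 0.0019. PABPC1 (-0.44 ± 0.11), the release factor GTPase GSPT1 (-0.43 ± 0.13) and the TOP mRNA TPT1 (-0.68 ± 0.20, all SE) fell, with limma adjusted p-values of 0.011, 0.040 and 0.040. Their median was -0.25 and 8 of 28 were above 0, beside 27 of 51 members. PABPC1 was overexpressed in the cells of the PABPC1 libraries, and its fold over IgG in the authors' deposited tables was 2.03 with PABPC1 RIP and 2.10 with PABPC4 RIP. PABPC4, overexpressed in the cells of the PABPC4 libraries, was at -0.096 ± 0.21 (SE) in the direct fit, with a limma adjusted p of 0.87. The part of the overexpression in these values was not tested.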

How the data were processed

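Members and lists were chosen with earlier results of these data known. The authors deposited a linear fold (ratio of mean RPKM in RIP over mean RPKM in IgG plus 0.005 RPKM, as worked out from the values), a p-value and a Benjamini-Hochberg adjusted p per gene, per the file headers; 0 columns hold single libraries. Per the submitters' processing notes the tools included STAR 2.7.10a, Bowtie2 2.4.1 and featureCounts 2.0.1, with the builds GRCh38 and hg38. The deposited p-value equals a Yates-corrected chi-square test on summed reads, with both tables sharing the pooled IgG libraries. Reads per library were solved from p-values and folds for 17858 of 22607 genes with a p; recomputed folds and p-values matched the deposited ones (largest relative fold difference 5.1e-15), and the procedure was tested on simulated data. MALAT1 and the mitochondrial rRNA genes stayed unsolved, so nuclear-encoded totals cover solved genes. The direct comparison used limma 3.58.1 (voom, 3 group means, R 4.3.3) in place of a count test, because the reads are recovered values. Calls use an adjusted p under 0.05. Named genes are members called in any comparison, the 10 others with most PABPC4 reads, and members without IgG reads. Other scalings, filters, tests and left-out libraries were alternatives. Starts came from RefSeq (GRCh38.p14).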

Additional observations from a re-analysis of the deposited data

Results flagged for a closer look

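Each of 6 members had levels that differed between PABPC4 RIP and PABPC1 RIP by the direct test in limma voom. The log2 differences between PABPC4 and PABPC1 RIP were 0.80 for EIF3B (adjusted p 0.028), 0.62 for EIF3A (1e-09) and 0.59 for EIF5B (0.00011). They were -0.44 for EIF4B (0.00052), -0.54 for EEF1A1 (0.00037) and -0.91 for EIF2AK2 (0.030). In each case both PABPC4 libraries lay on the same side of both PABPC1 libraries on the median-of-ratios scale. The members were picked by a test on these same libraries, so this separation adds no support to the calls. With 2 libraries in a group, no sample could be examined for standing apart from the rest of its group.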

How the results depend on the processing

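No paired analysis was possible because the recovered libraries carry no replicate numbers. Over IgG, the chi-square test scaled by the median of ratios called 1 member higher with PABPC1, and 2 higher and 2 lower with PABPC4. Scaled by nuclear-encoded totals it called 1 higher and 1 lower with PABPC1, and 2 higher and 2 lower with PABPC4. The median log2 folds of members fell to 0.14 and 0.11 with PABPC1 and to 0.17 and 0.14 with PABPC4 on these scales. A minimum of 20 summed reads gave 7 calls with PABPC1. Limma voom over libraries called 0 with PABPC1 (4 higher and 1 lower at an unadjusted p under 0.05), and 2 higher and 2 lower with PABPC4. EEF2 reversed in PABPC4 against IgG to a fold of 0.728 (median of ratios), 0.710 (nuclear-encoded totals) and 0.734 (limma voom). Left-out libraries gave 2 to 6 PABPC1 calls with medians of 0.45 to 0.63, and 6 to 17 PABPC4 calls with medians of 1.11 to 1.23, the low counts of 2 and 6 without IgG library A. In PABPC4 against PABPC1, library totals gave 13 higher and 0 lower with a median of 0.49 and turned EIF4B to 0.033. Of all 7963 genes fitted, 1164 were called in either direction on that scale. Limma trend on log2(RPM + 1) and log2(RPM + 5) called 0 higher and 0 lower (4 and 3 at an unadjusted p in each), and the PABPC1 and PABPC4 libraries alone gave 5 lower. Left-out libraries gave medians from -0.20 to 0.057, and all calls were lost without PABPC1 library A or B. The median was below 0 without PABPC1 library A (-0.20) or PABPC4 library B (-0.032). Without PABPC4 library A the fit held 42 members and 4375 genes, and without PABPC4 library B 42 and 4368, in place of 51 and 7963. With all genes that had at least 1 read in 1 library, EIF3A lost its call, at 0.65 with an adjusted p of 0.74. The causes were not tested. The IgG libraries, at 94235 and 133030 reads, limit the precision of folds over IgG.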
